A study of Mus musculus with 6 samples.

Results

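The genes described here encode 8 proteins of the myelin sheath of peripheral nerves: Mbp, Pmp22, Mag, Prx, Mal, Cnp, Pllp and Ncmap. They were listed by name and not by a cutoff on measured values, though with earlier results of these data known. Each matched 1 row, so that 8 of the 39174 genes in the tables are members. RNA had been sequenced from whole sciatic nerves of adult mice aged 12 months. There were 3 wild-type animals (numbered 2, 4 and 5) and 3 Plekhg5-/- animals (numbered 2, 3 and 5), called Plekhg5-deficient or, for short, deficient. No further treatment or allele is given for either genotype, and the study refers to earlier work for how the mouse line was made. Levels are FPKM, in which the fragments of a gene are divided by its transcript length and by the library's total. Scaled FPKM are FPKM divided by a factor for each library (between 0.745 and 1.12) that brings the libraries to a common scale. In whole nerve, fewer cells of a type and less RNA per cell cannot be told apart.

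Schwann cells wrap axons in many turns of membrane, from which the cytoplasm is squeezed out to give compact myelin, while channels of non-compact myelin with cytoplasm remain at the paranodes and incisures. Pmp22, a membrane-spanning protein known for its role in inherited neuropathy, and Mbp, which lies on the cytoplasmic face and brings it together, are proteins of compact myelin. Mal and Pllp (plasmolipin) are related lipid-raft proteins of the myelin membrane, and Ncmap is a small membrane protein of non-compact myelin. Not all members belong to compact myelin in the strict sense. Mag, an adhesion molecule facing the axon, and Cnp, an enzyme of the cytoplasmic channels, mark non-compact myelin, and Prx (periaxin) scaffolds the outermost Schwann cell membrane to the basal lamina.

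As a check of the labels, Plekhg5 averaged 4.35 ± 0.826 scaled FPKM in the wild-type and 0.111 ± 0.0513 in the deficient group (SD, n = 3 each). All 8 pan Schwann cell markers were above 0 in every library, S100b between 181 and 551 scaled FPKM. The library of deficient nerve 5 stood apart with haemoglobin at 16.0% of its summed FPKM (between 0.507% and 2.56% in the others) and the largest share of 8 skeletal muscle markers (2.86%, against 0.0290% to 2.05%), and wild-type nerve 5 with T-cell markers summing to 113 scaled FPKM, against at most 7.16 elsewhere. Mitochondrially encoded genes made up 35.6% of summed FPKM in wild-type nerve 5 and 37.2% in deficient nerve 5, against 26.1% to 30.0% in the others. Fold changes of several members without deficient nerve 5, and of Mag without wild-type nerve 5, are given below.

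The 250 bases before the start of Pmp22, Prx and Ncmap are shown because the ratios of Pmp22 and Ncmap to Prx were among the 3 with the largest difference between genotypes. They are from RefSeq (GRCm38.p6), 5′ to 3′ on the strand of the gene. Pmp22 is at chr11:63128732-63128981 (plus strand), Prx at chr7:27499074-27499323 (plus strand) and Ncmap at chr4:135398228-135398477 (minus strand), each ending just before the gene start that the deposited tables give. Capitals mark matches, on either strand, to CCAAT or to the GC box GGGCGG, the matches of which overlap once in Ncmap.
Pmp22: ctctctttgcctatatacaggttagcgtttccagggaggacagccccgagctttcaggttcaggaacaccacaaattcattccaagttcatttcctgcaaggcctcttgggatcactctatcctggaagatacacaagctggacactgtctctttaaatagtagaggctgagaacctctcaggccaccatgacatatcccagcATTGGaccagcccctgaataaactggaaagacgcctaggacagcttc
Prx: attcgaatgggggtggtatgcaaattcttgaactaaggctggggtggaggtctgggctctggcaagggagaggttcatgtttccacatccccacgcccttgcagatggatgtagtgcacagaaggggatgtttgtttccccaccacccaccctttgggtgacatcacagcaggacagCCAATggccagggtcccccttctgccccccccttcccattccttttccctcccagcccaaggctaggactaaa
Ncmap: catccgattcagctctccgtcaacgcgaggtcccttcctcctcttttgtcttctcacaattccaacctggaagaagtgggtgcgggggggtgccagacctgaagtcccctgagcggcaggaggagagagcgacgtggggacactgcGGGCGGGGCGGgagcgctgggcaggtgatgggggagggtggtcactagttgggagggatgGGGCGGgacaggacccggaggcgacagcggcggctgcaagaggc
The Ncmap window held 17 CpG dinucleotides and 66% G and C, whereas the Pmp22 and Prx windows held 3 and 2 CpG and 48.8% and 56.4% G and C. The median over all 32851 promoters of this length was 6 CpG and 52.4%. Ncmap held 3 GC boxes and no CCAAT, and Pmp22 and Prx each held 1 CCAAT and no GC box. Of all promoters, 33.9% held CCAAT and 32.7% a GC box. RefSeq gave 13 starts for 7 members and none for Mbp. Of these 13, 6 held CCAAT, 5 a GC box and 3 the Sox core ACAAAG (16.5% of all), whereas none held ACAATG (10.7% of all), TATAAA (12.4%) or the Egr site GCGNGGGCG (4.70%). Windows of Mag starts at chr7:30914864-30915113 and chr7:30914923-30915172 overlap and share the same ACAAAG site. That site is therefore counted more than once, and starts of 1 gene are not independent. RefSeq lists 4 starts for Pmp22, and the FPKM of a gene sums over its transcripts, so that the starts cannot be told apart here.

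Pmp22 and Mbp were the most abundant members in every library. Among all genes as deposited, Pmp22 ranked between 10 and 30 and Mbp between 16 and 49, and without the mitochondrially encoded genes between 3 and 17 and between 6 and 34. The lowest ranks of both were in deficient nerve 5. Ncmap ranked between 148 and 556, Prx between 195 and 848, Mal between 315 and 811, Cnp between 362 and 750 and Pllp between 670 and 1328. Mag was the least abundant, ranking between 2892 and 5668. Within each library, the interval that Cufflinks gave at 95% reached from 2.64% to 10.4% of the value to either side, widest for Mag.

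Together the 8 genes made up 1.02%, 2.09% and 0.966% of all FPKM in the wild-type animals 2, 4 and 5, against 1.90%, 1.76% and 0.589% in deficient nerves 2, 3 and 5. The genotypes thus overlapped, with wild-type nerve 4 highest and deficient nerve 5 lowest. The mean share of deficient nerves was 1.04 times that of wild-type nerves. It was 1.42 times without wild-type nerve 4, 1.34 times without deficient nerve 5 and 0.863 times without deficient nerve 2. Leaving the mitochondrially encoded, haemoglobin and skeletal muscle marker genes out of the total moved deficient nerve 5 to 1.34%, still the lowest, and the ratio of the means to 1.10. With libraries scaled to the pan Schwann cell markers, the summed FPKM of the 8 did not overlap. It was 9173, 10695 and 10694 in wild-type and 12672, 11501 and 10876 in deficient nerves. The sum of the pan Schwann cell markers was itself lower without overlap on that scale. With the other scalings the sum of the 8 overlapped.

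**Figure D1:**
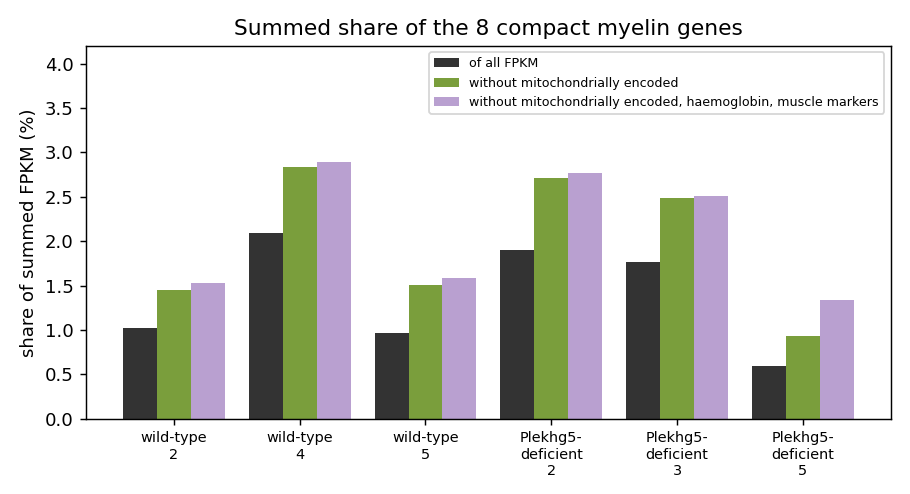
Share of the summed FPKM, in percent, held by the 8 myelin genes for 3 wild-type and 3 Plekhg5-deficient mice, of all FPKM (dark) and with abundant other transcripts left out of the total (green and violet). Each bar is 1 library. Wild-type nerve 4 is highest at 2.09% of all FPKM and Plekhg5-deficient nerve 5 lowest at 0.589%, so that the genotypes overlap.

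Ncmap was the member with the largest difference. It lies on chromosome 4 from 135369576 to 135398227 and was at 152, 290 and 302 scaled FPKM in the wild-type animals 2, 4 and 5, against 480, 456 and 358 scaled FPKM in deficient nerves 2, 3 and 5. On this scale all 3 deficient nerves exceeded all 3 wild-type nerves, and wild-type nerve 2 was lowest. In FPKM as deposited the genotypes overlapped, since deficient nerve 5 was at 266 and wild-type nerves 4 and 5 were at 324 and 300 FPKM, and they also overlapped when libraries were scaled to their total without mitochondrially encoded, haemoglobin and muscle genes (308 in deficient nerve 5 and 319 in wild-type nerve 4). The mean was 431 ± 64.6 in deficient and 248 ± 83.6 in wild-type nerves (SD, n = 3 each), 1.74 times as high. Of the 8 members, 1 was thus higher without overlap and 0 were lower, where 5.69% of all genes tested were higher and 5.88% lower in this way (11.6% in all). The count depended on the scaling. It was 0 higher and 0 lower in FPKM as deposited and with the total, and 2 higher (Ncmap and Pmp22) and 2 lower (Mbp and Prx) with libraries scaled to the pan Schwann cell markers, where 2.73% of all genes were higher and 4.41% lower. Ncmap is the only member on the chromosome of Plekhg5, from which it lies 16.7 Mb away. Any bearing of this position on its level was not tested.

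Pmp22, on chromosome 11 from 63128982 to 63159547, was at 4253, 8401 and 4899 scaled FPKM in the wild-type animals 2, 4 and 5, against 9389, 9022 and 5232 in deficient nerves 2, 3 and 5. In both genotypes the values spread widely, and the genotypes overlapped through wild-type nerve 4 and deficient nerve 5. The means were 5851 ± 2232 and 7881 ± 2301 (SD, n = 3 each). Mal, on chromosome 2 from 127633226 to 127656695, had the pattern most like that of Pmp22 among the members (Pearson r = 0.94 over the 6 libraries on the log2 scale), at 129, 236 and 140 scaled FPKM in wild-type and 253, 197 and 125 in deficient nerves. Its relative Pllp, on chromosome 8 from 94674895 to 94696242, was at 67.7, 115 and 98.8 scaled FPKM in wild-type and at 124, 133 and 99.2 in deficient nerves. Both overlapped between genotypes.

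Mbp, on chromosome 18 from 82475146 to 82585637, was at 2669, 4661 and 3328 scaled FPKM in the wild-type animals 2, 4 and 5, against 3221, 3516 and 2346 in deficient nerves 2, 3 and 5. Prx, on chromosome 7 from 27499324 to 27520214, was at 201, 362 and 204 scaled FPKM in wild-type nerves and at 233, 207 and 120 in deficient nerves. For both, wild-type nerve 4 was the highest library and deficient nerve 5 the lowest, and the other 4 lay between. The means of Mbp were 3553 ± 1015 in wild-type and 3028 ± 609 in deficient nerves, and those of Prx 256 ± 92.1 and 187 ± 59.4 (SD, n = 3 each).

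Of the genes of non-compact myelin, Mag, on chromosome 7 from 30899183 to 30914327, was at 18.8, 28.2 and 14.0 scaled FPKM in wild-type and at 24.5, 21.8 and 11.9 in deficient nerves. Its order of libraries within each genotype was led by wild-type nerve 4 and deficient nerve 2, with the animal numbered 5 lowest in both. Cnp, on chromosome 11 from 100574904 to 100591729, was at 117, 161 and 145 scaled FPKM in wild-type and at 222, 176 and 143 in deficient nerves, overlapping through deficient nerve 5. The annotation places Dnajc7, a chaperone gene with a mean of 116 scaled FPKM, across part of Cnp on the other strand. Which strand was counted is not stated, so reads of the overlap cannot be assigned with certainty. A pseudogene with a mean of 21.0 scaled FPKM, Rpl21-ps8, overlaps Mbp on the other strand in the same way.

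**Figure D2:**
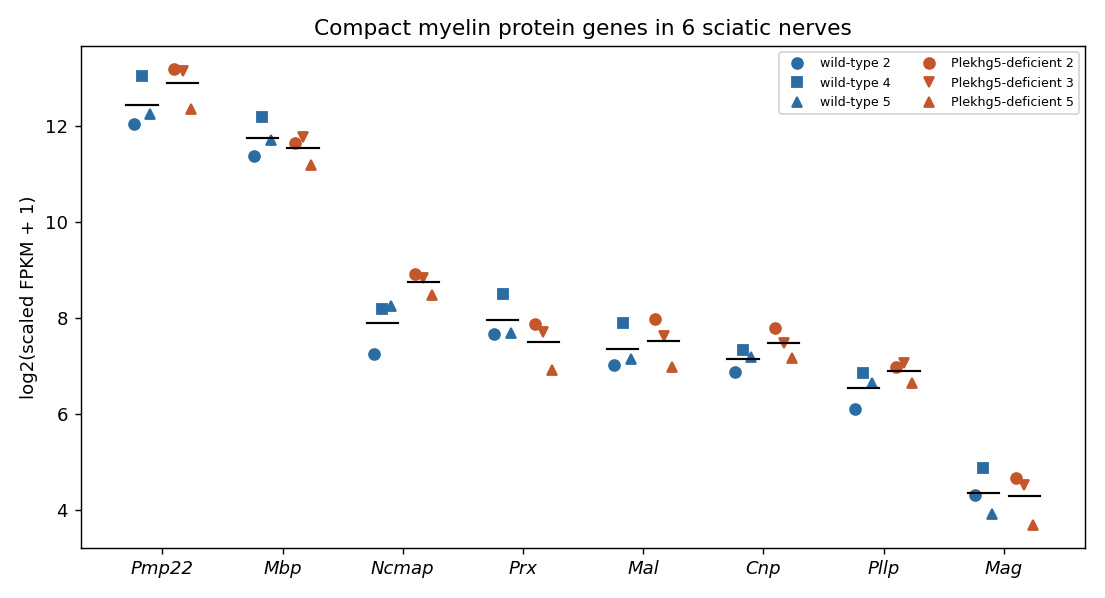
Scaled FPKM of the 8 myelin genes, drawn as log2(FPKM + 1), for 3 wild-type (blue) and 3 Plekhg5-deficient (orange) mice. Symbols are libraries, their shape is the animal's number, and bars are means of 3. On this scale Ncmap is the gene whose genotypes do not overlap (in FPKM as deposited they do), and wild-type nerve 4 and Plekhg5-deficient nerve 5 lie toward opposite ends for Mbp and Prx.

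In the comparison of genotypes over all 21285 genes tested with limma on log2(FPKM + 1), 0 of the 8 members passed at an adjusted p under 0.05, where 0.0282% of all genes were called higher and 0.0094% lower. Without adjustment, 1 member was higher at p under 0.05 (Ncmap) and 0 were lower, where 5.11% of all genes passed in either direction (2.41% higher, 2.69% lower). Ncmap missed this threshold in 7 of 18 alternative settings, with unadjusted p between 0.0576 and 0.110 from limma: FPKM as deposited, scaling to the total or to the pan Schwann cell markers, a replicate block, and without wild-type nerve 2, deficient nerve 2 or deficient nerve 3. Of all genes, 753 were lower and 239 higher at this threshold in FPKM as deposited, and 743 and 301 with scaling to the total, against 573 and 514 here. The log2 fold change of Ncmap was 0.85 (standard error 0.32, 95% interval 0.081 to 1.62, unadjusted p = 0.0349 and adjusted p = 0.960 from limma). Those of Pmp22 (0.45), Pllp (0.36), Cnp (0.34) and Mal (0.18) were above 0 and those of Prx (-0.45), Mbp (-0.21) and Mag (-0.070) below 0. All 7 of these had intervals that include 0. The intervals were wide, from -0.80 to 1.69 for Pmp22, from -1.30 to 0.40 for Prx and from -1.17 to 0.74 for Mbp, so that changes of 1.5 times in either direction lie within those of Pmp22 and Mbp. The median of the 8 log2 fold changes was 0.26, against 0.0065 over all genes tested, and it ranged from 0.064 without deficient nerve 2 to 0.47 without deficient nerve 5. Without both libraries numbered 5, Ncmap had a log2 fold change of 1.14 and the ratio of its means was 2.12. Without deficient nerve 5, the log2 fold change of Prx was -0.16, that of Mbp -0.044 and that of Pmp22 0.71. Without wild-type nerve 4, those of Prx and Mbp were -0.18 and -0.00041 and that of Pmp22 0.74. The log2 fold change of Mag was 0.23 without deficient nerve 5, 0.18 without wild-type nerve 4 and -0.31 without wild-type nerve 5. That of Mal was 0.45 without deficient nerve 5 and -0.053 without deficient nerve 2.

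**Figure D3:**
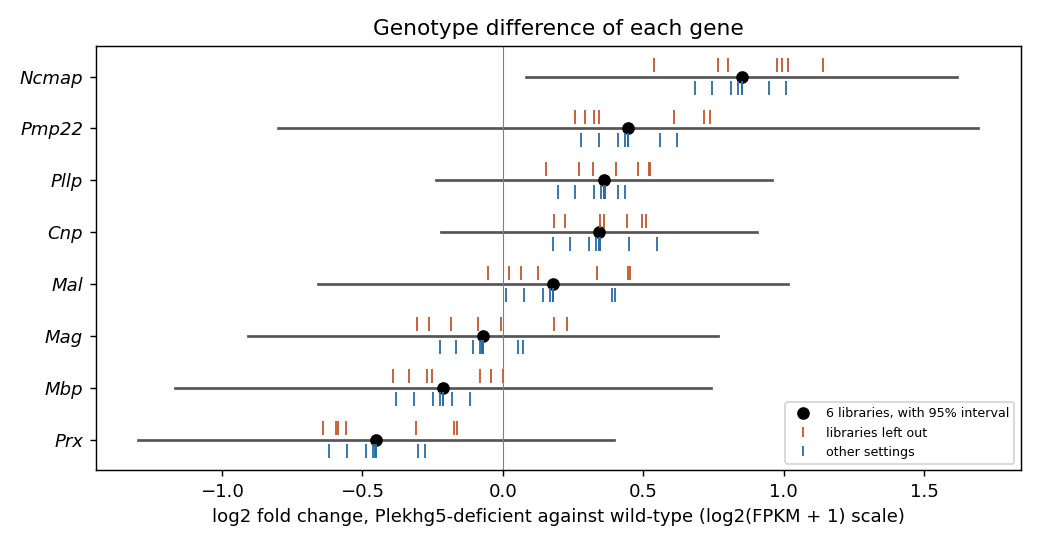
Log2 fold change of each myelin gene, Plekhg5-deficient against wild-type nerves, on the log2(FPKM + 1) scale. Dots and lines are the estimates from 6 libraries with their 95% intervals from limma, orange marks the estimates with libraries left out and blue marks other settings. Only the interval of Ncmap (0.081 to 1.62) lies off 0.

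Ratios of 15 of the 28 pairs of members separated the genotypes, although most of the members' levels overlapped. The share was 9.76% over all pairs of genes averaging 10 FPKM or more. These ratios were chosen after the values were seen. A ratio of 2 genes within a library does not depend on how libraries are scaled to each other. The ratio of Pmp22 to Prx was 21.2, 23.2 and 24.0 in the wild-type animals 2, 4 and 5, against 40.3, 43.5 and 43.7 in deficient nerves 2, 3 and 5. Within a genotype the 3 animals lay close together, although the level of each gene varied widely among them, and the mean was 1.87 times as high in deficient nerves (42.5 ± 1.92 against 22.8 ± 1.47, SD, n = 3 each). The ratio of Pmp22 to Mbp was 1.59, 1.8 and 1.47 in wild-type and 2.91, 2.57 and 2.23 in deficient nerves, again without overlap.

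Ncmap was also higher relative to Prx and to Mbp in every deficient nerve. Its ratio to Prx was 0.755, 0.801 and 1.48 in wild-type and 2.06, 2.2 and 2.99 in deficient nerves. Its ratio to Mbp was 0.0569, 0.0622 and 0.0909 in wild-type and 0.149, 0.130 and 0.153 in deficient nerves. The means of these ratios were 2.39 and 2.05 times as high in deficient nerves, with wild-type nerve 5 the closest to the other genotype in both. Mal, Cnp and Pllp were each higher relative to Prx and relative to Mbp without overlap, by ratios of means between 1.33 and 1.76. Mbp relative to Prx (14.2 ± 1.88 in wild-type and 16.8 ± 2.89 in deficient nerves, SD, n = 3 each) overlapped between genotypes, as did Ncmap relative to Pmp22.

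**Figure D4:**
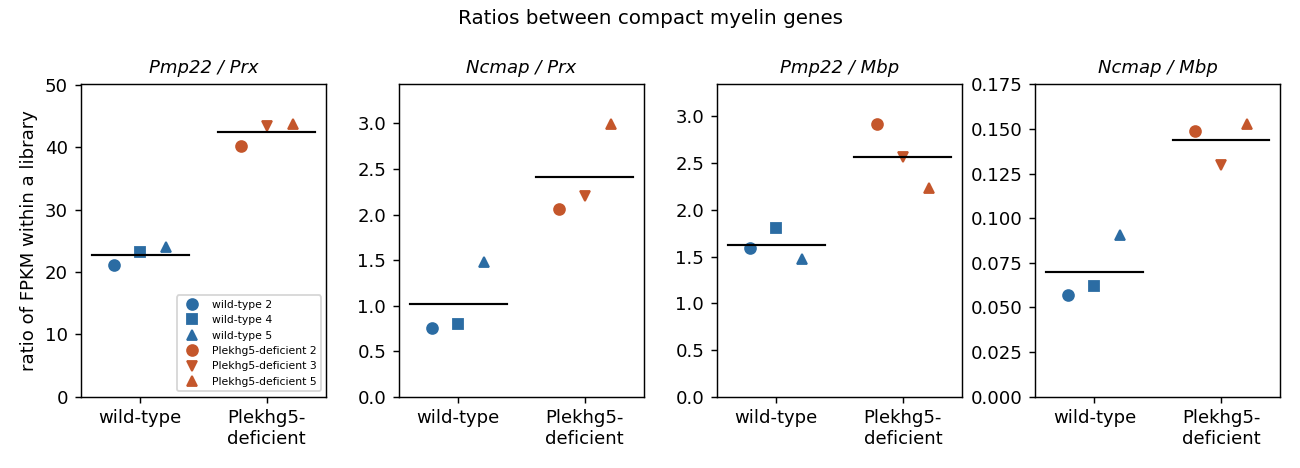
Ratio of the FPKM of 2 myelin genes within each library, on linear axes from 0, for Pmp22 and Ncmap relative to Prx and Mbp. Symbols are 3 wild-type (blue) and 3 Plekhg5-deficient (orange) nerves and bars are means of 3. In each panel every Plekhg5-deficient nerve lies above every wild-type nerve, with Pmp22 to Prx between 21.2 and 24.0 in wild-type and between 40.3 and 43.7 in Plekhg5-deficient nerves.

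Of the 28 pairs of members, 15 had ratios without overlap between genotypes, where 9.76% of all 21474181 pairs of genes averaging 10 FPKM or more did. The share among pairs of other Schwann cell genes was not computed. The pairs share genes and are not independent, and the exact permutation test of 1 ratio between groups of 3, taken two-sided, has 0.1 as its smallest p, which each of the 15 has. With any 1 library left out, a setting added after the data were seen, between 15 and 22 of the 28 pairs had no overlap (14.9% to 24.7% of all pairs), and 22 without both libraries numbered 5 (35.7% of all pairs). A pair without overlap cannot come to overlap when a library is left out. These counts could thus only stay or rise, and they do not measure how stable the ratios are.

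As shares of the summed FPKM of the 8 genes, Pmp22 made up between 53.6% and 58.9% in wild-type and between 62.0% and 67.3% in deficient nerves. Mbp made up between 32.7% and 36.4% in wild-type and between 23.1% and 27.8% in deficient nerves. Prx accounted for 2.47% ± 0.212 and 1.53% ± 0.127 (SD, n = 3 each) and Ncmap for 2.45% ± 0.749 and 3.67% ± 0.501. With every gene weighted alike, as the log2 FPKM relative to the mean of the 8 in the same library, the same 4 genes separated the genotypes, Prx and Mbp lower by 0.63 and 0.39 and Ncmap and Pmp22 higher by 0.67 and 0.27. Mag, Mal, Cnp and Pllp overlapped. As such proportions sum to a fixed total, a higher one makes the others lower. How many of all genes would separate on these measures was not computed, so the count of 4 members has no baseline.

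**Figure D5:**
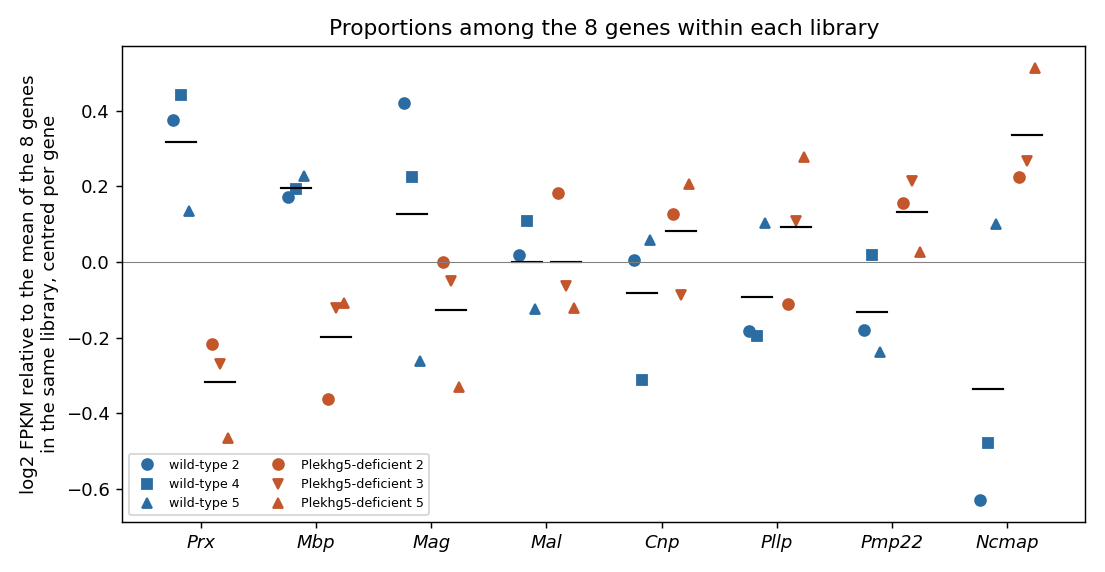
Log2 FPKM of each myelin gene relative to the mean of the 8 genes in the same library, centred at 0 for each gene, in 3 wild-type (blue) and 3 Plekhg5-deficient (orange) nerves. Bars are means of 3. Prx and Mbp lie higher in every wild-type nerve and Pmp22 and Ncmap in every Plekhg5-deficient nerve, while the other 4 genes overlap. The share of all genes that separate in this way was not computed.

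Across the 6 libraries the members varied together to different degrees. Pearson r on the log2 scale was 0.92 between Mbp and Prx, 0.93 between Pllp and Ncmap and 0.90 between Pmp22 and Pllp, but -0.061 between Prx and Ncmap and 0.20 between Mbp and Ncmap. These are descriptions over 6 libraries that include the difference between genotypes. The genes most like the mean of the members, of 6490 others with a mean of at least 10 FPKM, were Syna, Epb4.1l2, Cntf, Caskin2, Mlip, Smtn, Fam57a and Mfap3l (r of at least 0.98). Cntf, a neurotrophic factor made by Schwann cells, was at 460, 873 and 560 scaled FPKM in wild-type and at 906, 745 and 497 in deficient nerves, with wild-type nerve 4 and deficient nerve 2 highest.

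Among 24 other genes of myelinating Schwann cells, 0 passed at an adjusted p under 0.05 from limma, 1 was higher and 0 lower when p was left unadjusted (under 0.05), and 15 had a log2 fold change above 0 (median 0.14). The higher gene was Mtmr2, a lipid phosphatase of Schwann cells, at 16.2, 20.2 and 16.5 scaled FPKM in wild-type and 29.4, 27.9 and 20.3 in deficient nerves. Its genotypes did not overlap here, but overlapped in FPKM as deposited. Drp2, the partner of Prx at the outer membrane, was at 147, 274 and 214 scaled FPKM in wild-type and at 264, 195 and 119 in deficient nerves and overlapped. Pmp2, a fatty acid-binding protein of peripheral myelin, was at 65.9, 102 and 65.7 against 154, 181 and 65.9 scaled FPKM. The most abundant of the list, Cd9 and Ndrg1, had log2 fold changes of 0.33 and -0.033. Of 12 transcription factors of myelination, 0 had an unadjusted p under 0.05 (median log2 fold change 0.043). On the main scale 1 was higher without overlap, where 5.69% of all genes were. This was Pou3f1, at 5.23, 6.56 and 4.12 scaled FPKM in wild-type and 8.19, 8.51 and 6.74 in deficient nerves. It overlapped in FPKM as deposited, and is also among the non-myelinating or immature markers below. Egr2, which drives myelin genes together with Sox10, was at 19.0, 51.0 and 25.1 scaled FPKM in wild-type and at 35.0, 40.1 and 33.7 in deficient nerves, and Sox10 at 75.9, 145 and 61.6 and at 104, 109 and 51.9. Both were highest in wild-type nerve 4. The 8 pan Schwann cell markers and the 8 markers of non-myelinating or immature Schwann cells had medians of 0.082 and 0.068 and no gene with p under 0.05 before adjustment (limma). With libraries scaled to the pan Schwann cell markers, the log2 fold changes of Ncmap, Pmp22, Mbp and Prx were 0.81, 0.41, -0.25 and -0.49. On that scale, 7 of the 24 other genes of myelinating Schwann cells were higher and 1 was lower without overlap. Of all genes, 2.73% were higher and 4.41% lower in this way, so such separation was not particular to the members.

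Oligodendrocytes, the myelinating cells of the central nervous system, also express Mbp, Mag, Mal, Cnp and Pllp. Of their markers, all 10 had a log2 fold change below 0 (median -0.27), 0 passed over all genes, 2 were lower at an unadjusted p under 0.05 (2.69% of all genes) and 6 were lower without overlap (5.88% of all genes), or 5 in FPKM as deposited. Mobp was at 14.0, 3.30 and 1.47 scaled FPKM in wild-type and at 0.379, 0.632 and 0.829 in deficient nerves. Mog was at 1.47, 0.342 and 0.107 scaled FPKM in wild-type nerves and at most at 0.0332 in deficient nerves, and Olig2 at most at 0.305 in any library and at 0 in all deficient nerves. The markers at higher levels, Ugt8a and Aspa, overlapped, and Ugt8a is also made by Schwann cells. The markers summed to between 104 and 187 scaled FPKM in wild-type and between 89.7 and 143 in deficient nerves. Most of this sum came from Ugt8a (means of 70.2 and 67.5) and Aspa (55.7 and 51.5), so it says little about the other markers. The shares of Mbp among the members were 35.1%, 32.7% and 36.4% in wild-type nerves 2, 4 and 5. They were 23.1%, 25.6% and 27.8% in deficient nerves 2, 3 and 5. The part of oligodendrocyte RNA in the proportions of the members was not tested.

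Markers of other cells also differed between libraries. Skeletal muscle markers summed to between 2424 and 15222 scaled FPKM in wild-type nerves and to 2085, 226 and 40998 in deficient nerves 2, 3 and 5, and erythroid markers to between 8736 and 24290 and to 7920, 3975 and 229910. Adipocyte markers summed to between 3035 and 3704 in wild-type and to between 1149 and 7940 in deficient nerves, and macrophage markers to between 176 and 396 and between 193 and 476. Endoneurial fibroblast markers summed to between 7276 and 11766 in wild-type and 12591 and 14541 in deficient nerves. Perineurial markers summed to between 293 and 395 and between 243 and 300. In these 6 lists and the T-cell markers, 0 genes passed over all genes tested. Without adjustment (p under 0.05, limma), 3 were lower (2 perineurial and 1 adipocyte) and 0 higher. Of all genes, 2.69% were lower and 2.41% higher in this way. The 2 perineurial genes, of 6 in that list, were Lypd2 (mean 118 scaled FPKM in wild-type and 48.4 in deficient nerves) and Msln (10.1 and 5.51). Both were lower without overlap on this scale, where 5.88% of all genes were. The medians of log2 fold change lay between -1.34 (skeletal muscle) and 0.54 (erythroid). Pmp22 is also expressed by fibroblasts, and the fibroblast sum, mostly Apod, was higher in all 3 deficient nerves on this scale but overlapped in FPKM as deposited, while the median log2 fold change of the 7 markers was -0.25. The ratio of Pmp22 to Prx was 21.2, 23.2 and 24.0 in wild-type nerves 2, 4 and 5. It was 40.3, 43.5 and 43.7 in deficient nerves 2, 3 and 5. The part of these cells in the levels of the members and in this ratio was not tested.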

How the data were processed

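The authors sequenced RNA from 6 sciatic nerves after library preparation with a Lexogen mRNA kit. Trim Galore 0.4.0 was used for trimming and STAR for mapping to GRCm38, and the authors estimated the deposited FPKM and their 95% intervals per library with Cufflinks 2.2.1. Sequencing depth is unknown here, and neither annotation release nor strand setting is stated. Repeated rows of 19 identifiers were added up. A gene was tested if its mean reached 0.1 FPKM in 1 genotype or both. Libraries were brought to a common scale by the median of ratios, and genotypes were compared on log2(FPKM + 1) by limma 3.58.1 (R 4.3.3), allowing a trend of variance with level, with Benjamini-Hochberg adjustment. The pseudocount understates changes of low genes. Ranks, shares and ratios used FPKM as deposited. Coordinates are 1-based, and promoters are the 250 bases before RefSeq starts.

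The members, lists and tests were chosen with earlier results of these data known, and the pair ratios and motifs after values were seen. By rule, the genes to be named were the members, Plekhg5, the 2 most abundant genes of each list and the 8 genes most like the members. Those without bearing on a result were left out. S100b, Drp2, Pmp2, Egr2, Pou3f1, Mtmr2, Mobp, Mog, Olig2 and Msln were added after their values were seen where the rule did not name them. Some other myelin genes are not reported here. Litters are not stated, so p-values measure the spread between these samples. Alternatives were other pseudocounts, filters, scalings and variance settings, array weights, a replicate block and leaving libraries out. Overlap between genotypes under each scaling was added after the data were seen.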

Additional observations from a re-analysis of the deposited data

How the results depend on the processing

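Over 18 alternatives, the log2 fold changes of Mbp, Pmp22, Prx, Cnp, Pllp and Ncmap kept their sign and no member passed over all genes in any of them. Ncmap lay between 0.54 and 1.14 (adjusted p of at least 0.264 from limma). Mag, at -0.070, was 0.054 with array weights, 0.072 with a replicate block, 0.18 without wild-type nerve 4 and 0.23 without Plekhg5-deficient nerve 5, and Mal, at 0.18, was -0.053 without Plekhg5-deficient nerve 2. With 1 library left out, Mag lay between -0.31 and 0.23, Mal between -0.053 and 0.45, Mbp between -0.39 and -0.00041 (nearest 0 without wild-type nerve 4), Prx between -0.64 and -0.16 (without Plekhg5-deficient nerve 5), Pmp22 between 0.26 and 0.74, Cnp between 0.18 (without Plekhg5-deficient nerve 2) and 0.49 and Pllp between 0.15 (without wild-type nerve 2) and 0.52. The cause was not tested. With FPKM as deposited, the median of all genes moved to -0.094 and that of the members to 0.094. With 1 library left out, the median of the 8 lay between 0.064 and 0.47 and the ratio of their summed shares between 0.863 and 1.42.

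Over all genes, 2 were called lower and 6 higher. The counts were 1 lower with a pseudocount of 0.1 or a minimum of 1 FPKM, 0 lower and 2 higher with no filter (711 and 686 before adjustment), 4 lower with scaling to the total without mitochondrially encoded, haemoglobin and muscle genes, 0 lower and 3 higher with pan Schwann cell scaling (368 and 216), 8 lower and 14 higher with array weights, and 0 lower and 9 higher without both libraries numbered 5 (735 and 579). With 1 library left out they were 0 lower and between 0 and 5 higher, all with limma (before adjustment, between 344 and 757 had p under 0.05 and were lower, and between 335 and 588 higher). With a replicate block for the numbers that both genotypes share (2 and 5), limma called 0 lower and 0 higher, while 616 lower and 336 higher genes had p under 0.05 before adjustment. The numbers are not known to pair the animals: deviations of the same-numbered libraries correlated at 0.083 for number 2 and 0.615 for number 5. Plekhg5 itself was not called with any 1 library left out, although its log2 fold change lay between -2.33 and -2.14 there (-2.26 with all libraries). Depth is unknown, so no limit from it can be given.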
